A study of Homo sapiens with 6 samples.

Results

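The transcripts described here are those of 38 genes that act in mitosis and at the transition from G2 to M phase. They were chosen by gene name, and all 38 were found among the 26445 Ensembl-named probe sets on the arrays. The cells were SW480, a human colon cancer line with minimal expression of KIAA1199, in which a clone (KIAA1199-Cl.13) carried the tetracycline repressor and a KIAA1199 construct that it controls. Total RNA of 3 independent experiments was hybridized to 6 Affymetrix Human Exon 1.0 ST arrays, 3 from cells kept with doxycycline for 48 h (50 ng/ml in the sample labels) and 3 from uninduced cells. Cells of both groups were a single clone, carried both vectors, and were grown in medium with 10% Tet-approved serum under selection with G418 (0.4 mg/ml) and blasticidin S (7 µg/ml). No array of doxycycline-treated cells without the construct was analysed here, so an effect of KIAA1199 and an effect of doxycycline itself cannot be told apart. The paper cites earlier work in which doxycycline at the concentrations used did not affect microarray transcript levels. That was not tested here. The sources used here pair only the 38 members with gene names. The level of KIAA1199 itself, the markers of colon epithelium and of other cell types, and other mitotic genes were therefore not analysed here.

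Cells enter mitosis when CDK1 bound to a B-type cyclin is switched on, and leave it when the anaphase-promoting complex (APC/C), a ubiquitin ligase, marks the cyclins and the securin that holds sister chromatids together for destruction. In between, Aurora and Polo-like kinases build the spindle, kinetochores tie chromosomes to microtubules, and the spindle checkpoint keeps the APC/C waiting until every kinetochore is attached. Most of these genes are transcribed together late in the cell cycle, so that their mRNA in a growing culture is often read as a sign of proliferation. Their promoters commonly carry CCAAT boxes, bound by NF-Y, and a short element called the CHR (cell cycle genes homology region), through which the MuvB complex represses them in resting cells and, with B-MYB and FOXM1, activates them in G2.

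Promoter windows, from 250 bases before to 50 bases after a transcription start, were read from RefSeq (GRCh38.p14) for 30 of the 38 genes. AURKA, BIRC5, BUB3, FOXM1, RACGAP1, TPX2, TTK and UBE2C were not matched. Where a gene had several windows (4 members), the first listed was taken. The windows of the 3 members that passed the study's limits are shown because they hold the motifs that the group shares. They lie on GRCh38.p14 at chr10:60778081-60778380 (plus strand) for CDK1, chr10:92592880-92593179 (plus strand) for KIF11 and chr4:120066799-120067098 (minus strand) for MAD2L1, and are written 5′ to 3′ with matches to the CHR and the CCAAT box in capitals.
CDK1: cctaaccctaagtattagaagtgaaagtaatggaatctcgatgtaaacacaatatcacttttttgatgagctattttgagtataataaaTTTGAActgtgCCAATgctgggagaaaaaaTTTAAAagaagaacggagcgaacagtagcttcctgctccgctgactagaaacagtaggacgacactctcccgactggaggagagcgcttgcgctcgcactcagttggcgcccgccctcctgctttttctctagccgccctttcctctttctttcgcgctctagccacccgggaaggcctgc
KIF11: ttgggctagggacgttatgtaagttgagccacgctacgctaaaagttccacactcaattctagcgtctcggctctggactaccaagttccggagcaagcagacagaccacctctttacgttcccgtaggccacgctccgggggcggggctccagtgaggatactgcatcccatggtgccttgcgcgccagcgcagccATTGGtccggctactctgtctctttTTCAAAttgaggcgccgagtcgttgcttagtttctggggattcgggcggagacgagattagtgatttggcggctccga
MAD2L1: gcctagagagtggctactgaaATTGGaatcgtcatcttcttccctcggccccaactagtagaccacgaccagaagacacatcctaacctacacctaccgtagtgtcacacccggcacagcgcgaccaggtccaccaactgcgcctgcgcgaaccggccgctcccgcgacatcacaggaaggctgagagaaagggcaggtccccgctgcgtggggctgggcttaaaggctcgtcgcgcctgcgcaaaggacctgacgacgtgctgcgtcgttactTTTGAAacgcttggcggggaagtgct
The CHR was searched as TTTGAA, as TTTAAA or as TTCGAA, and the CCAAT box as CCAAT. Both were searched on either strand, so that a match on the opposite strand appears above as its reverse complement. The CDK1 window held 2 CHR matches and 1 CCAAT match, and the KIF11 and MAD2L1 windows held 1 of each. Over the members, 25 of 30 windows (83.3%) held a CHR match, against 25.3% of the first windows of 27305 RefSeq genes. A CCAAT match was found in 23 of 30 (76.7%), against 35.7%, and both were found in 20 of 30 (66.7%), against 9.95%. In 2 members a CHR match and a CCAAT match overlapped. These are matches of letters and not measured binding sites.

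The mitosis genes showed no common shift with doxycycline. Their mean log2 level on the uninduced arrays was 9.23, 9.29 and 9.31 in experiments 1, 2 and 3, and on the doxycycline arrays it was 9.24, 9.26 and 9.28, so that the arrays of both groups lay in the same narrow range. The median log2 fold change over the 38 members (doxycycline minus uninduced) was -0.02, beside 0.00 over all probe sets. In the 3 experiments the members' median difference was 0.01, -0.04 and -0.05. Of the members, 21 had a log2 fold change below 0 and 17 above 0, and the values ran from -0.31 for CDK1 to 0.32 for MAD2L1. In bulk RNA, a change of transcript per cell and a change in the share of cells that are in G2 or mitosis cannot be told apart.

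Tests were made in limma over the whole table, with the 3 experiments as blocks. The study selected genes at 1.2-fold and an unadjusted p under 0.025, and a member within both is here said to be called. By these limits 3 of 38 members were called (7.89%). The background was 5.83% of all probe sets (1543 of 26445), and it was 10.1% of the 5844 probe sets whose mean level was at or above that of the lowest member. The median level of these 5844 was 8.38, below the members' median of 9.41, so they are not matched to the members by level. The count of called members is thus near the background. MAD2L1 was the only member called as higher (2.63%, against 2.90% of all probe sets), and CDK1 and KIF11 were called as lower (5.26%, against 2.94%). Of the 5844 probe sets at or above the lowest member's level, 304 were called as higher and 284 as lower. Calls in either direction were thus more frequent at such levels than over all probe sets. After Benjamini-Hochberg adjustment over all probe sets, 0 of 38 members had an adjusted p under 0.05 in limma, as did 0 (0%) of all probe sets, and the lowest adjusted p of a member was 0.35. At an unadjusted p under 0.05, 6 members passed (15.8%, against 12.3% of all probe sets), namely CDK1, KIF11, NEK2, KIF20A, CDC20 and MAD2L1. The 95% interval from limma held 0, so that this limit was not passed, in 32 of 38 members. It held 0 in 4606 of the 5844 probe sets at or above the lowest member's level. Members thus passed this limit less often than probe sets at such levels, and this difference was not tested. The methods' t-test, run here on the same log2 levels, called 1 member at the same limits, CDK1. The study's own list was drawn from Affymetrix transcript clusters and not from these Ensembl-named probe sets, and the 2 are not compared here.

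**Figure D1:**
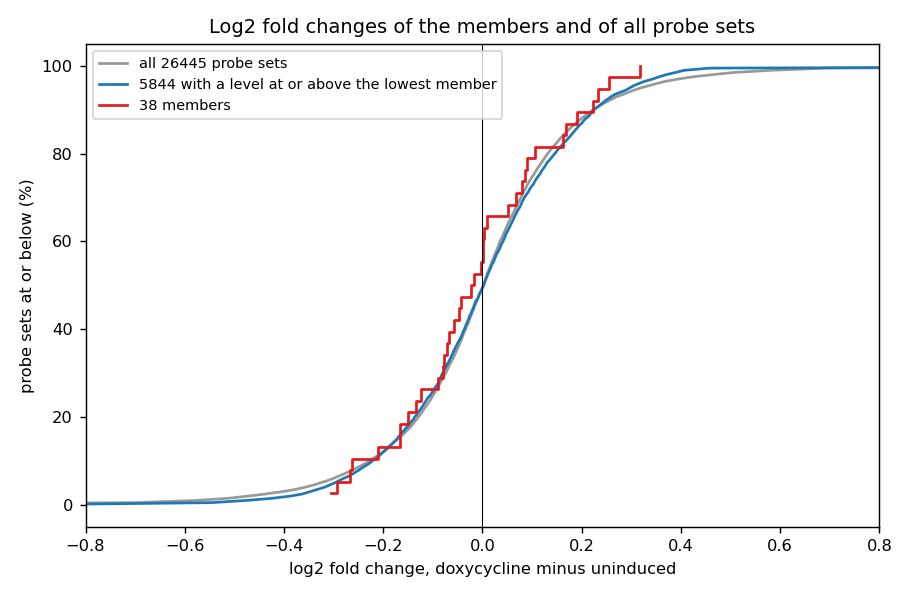
Cumulative share (%) of probe sets at or below each log2 fold change (doxycycline minus uninduced), for the 38 members, for all 26445 probe sets and for the 5844 at or above the level of the lowest member. The members' curve follows the others, with a median of -0.02 and no member beyond -0.31 or 0.32.

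All members were well expressed. Their mean log2 levels ran from 7.25 for KIF2C to 11.16 for ANLN, and even the lowest stood above 77.9% of all probe sets. The spread between experiments was that of well-expressed probe sets, with a median SD of the 3 differences of 0.10, beside 0.10 at or above the lowest member's level and 0.14 over all probe sets. The median standard error of a log2 fold change was 0.07. A difference of at least 1.2-fold in either direction was seen in 5 members (CDK1, CENPE, NDC80, KIF11 and MAD2L1), which is 13.2%, beside 15.3% of all probe sets and 13.6% of those at or above the lowest member's level. An absolute log2 fold change under 0.1 was seen in 20 members (52.6%), beside 49.8% and 46.9%.

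**Figure D2:**
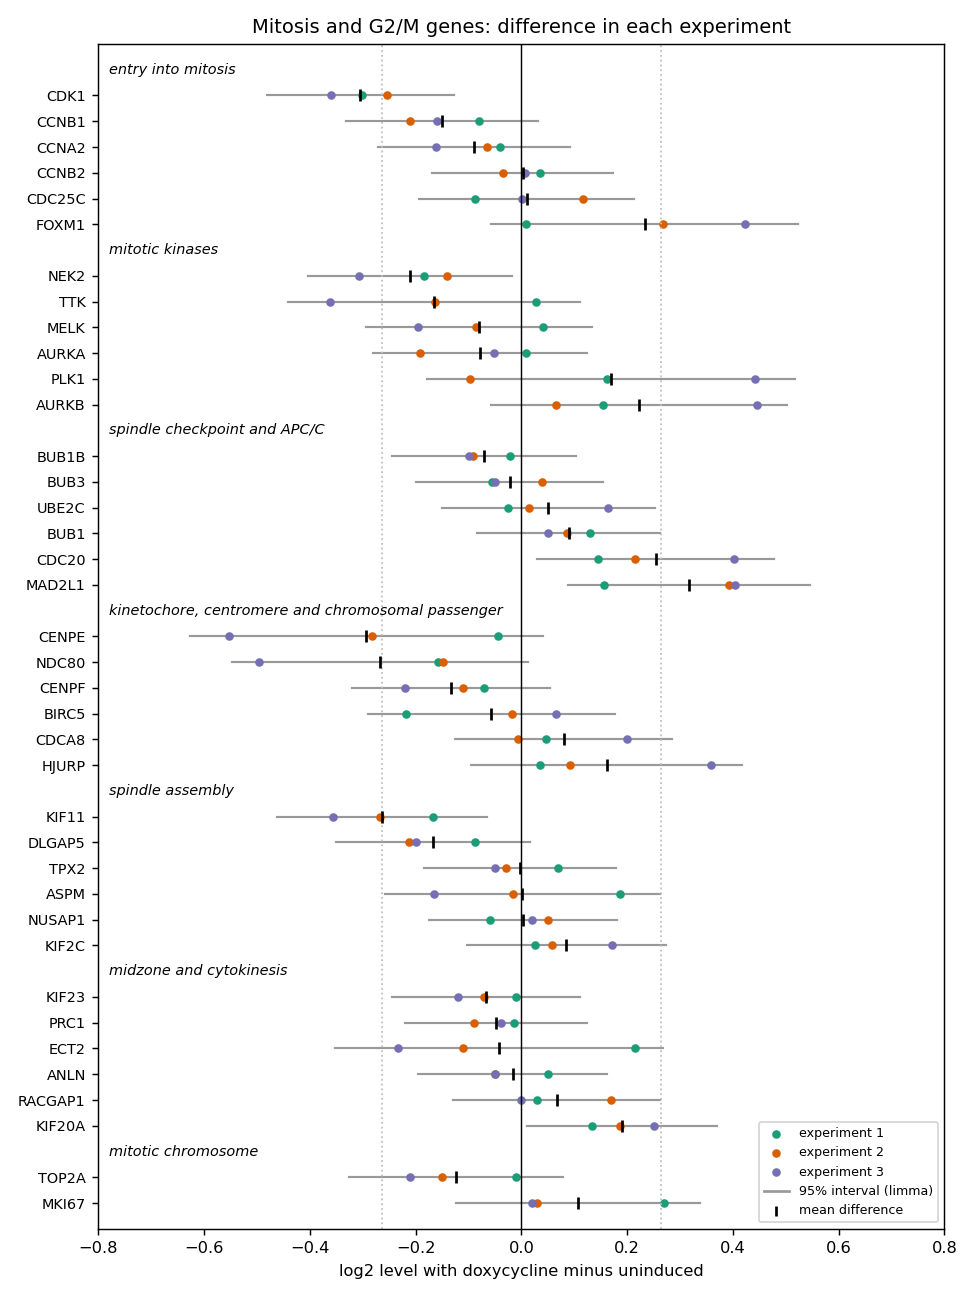
Difference in log2 level (doxycycline minus uninduced) of each of the 38 members, grouped by role. Coloured points are experiments 1, 2 and 3, the black tick is their mean, the grey line is the 95% interval from limma, and dotted lines mark a fold change of 1.2. The intervals of CDK1, KIF11, NEK2, KIF20A, CDC20 and MAD2L1 leave out 0.

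Among the 6 genes that control entry into mitosis, CDK1, the kinase that starts it, was called as lower and the other 5 were not called. CDK1 (ENSG00000170312_at) had log2 levels of 7.34, 7.49 and 7.39 on the uninduced arrays of experiments 1, 2 and 3, and of 7.04, 7.23 and 7.03 on the doxycycline arrays. Every doxycycline array lay below every uninduced array. The mean log2 level was 7.41 ± 0.07 (SD, n = 3) without and 7.10 ± 0.11 (SD, n = 3) with doxycycline, which is 1.24-fold lower. The log2 fold change was -0.31 (standard error 0.06, 95% interval -0.48 to -0.13, adjusted p = 0.35 in limma). The call was lost without experiment 1, 2 or 3 (log2 fold changes of -0.31, -0.33 and -0.28), to which the smaller number of arrays contributes. With no block, it was also lost without the doxycycline array of experiment 1 or 3, or the uninduced array of experiment 2 or 3.

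The cyclins that partner CDK1 were not called. CCNB1 (ENSG00000134057_at), the main mitotic cyclin, had log2 levels of 10.34, 10.58 and 10.34 without and 10.26, 10.37 and 10.18 with doxycycline. It was lower in each experiment, but the groups overlapped because the doxycycline array of experiment 2 lay above the uninduced arrays of experiments 1 and 3. Its log2 fold change was -0.15 (standard error 0.07, 95% interval -0.33 to 0.03, adjusted p = 0.46 in limma). CCNA2, the cyclin of S and G2 phase, had a log2 fold change of -0.09, and CCNB2, the second B-type cyclin, one of 0.00. CDC25C, a phosphatase that activates CDK1, was at 0.01.

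FOXM1 (ENSG00000111206_at), a transcription factor that activates many of the other members in G2, leaned the other way. Its log2 levels were 9.43, 9.28 and 9.39 on the uninduced arrays and 9.44, 9.55 and 9.81 on the doxycycline arrays. The groups did not overlap, but the difference was only 0.01 in experiment 1, against 0.27 and 0.42 in experiments 2 and 3. The log2 fold change was 0.23 (standard error 0.10, 95% interval -0.06 to 0.52, adjusted p = 0.47 in limma), and it did not pass the limits.

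**Figure D3:**
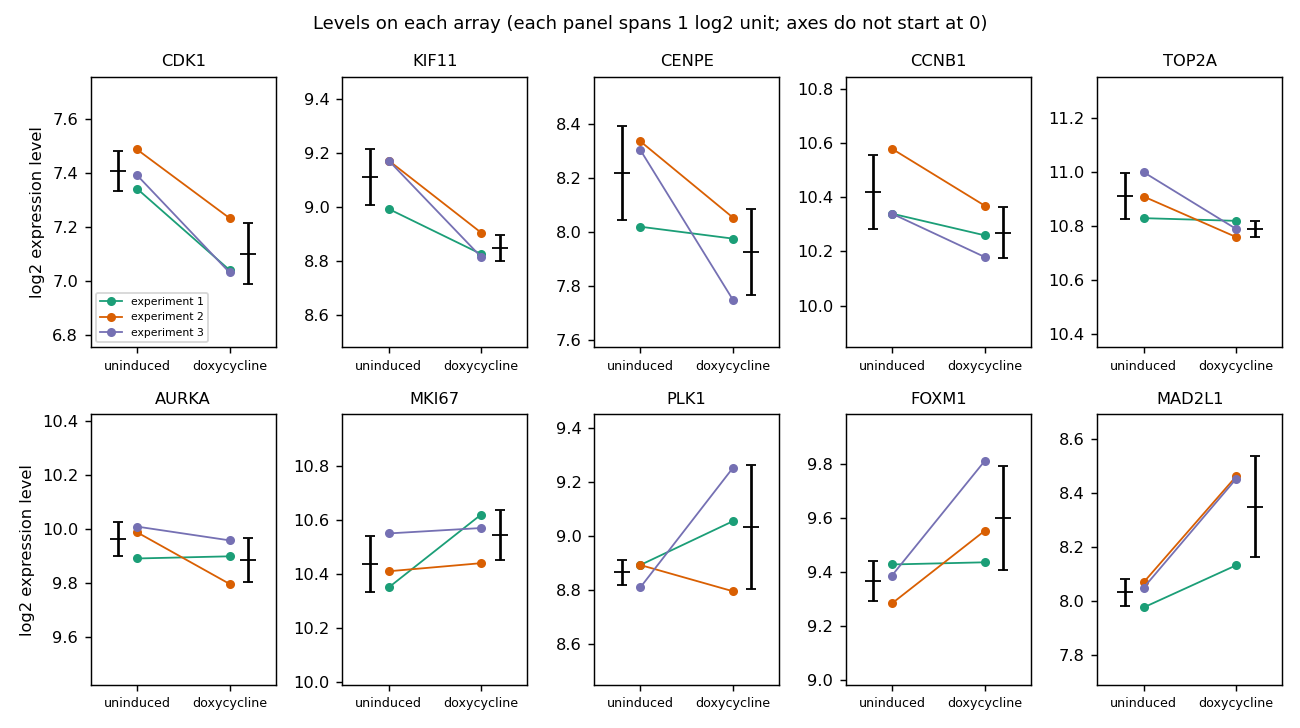
Log2 expression level of 10 members on each of the 6 arrays. Lines join the uninduced and doxycycline arrays of an experiment, and black marks are means with SD (n = 3). CDK1 and KIF11 were lower with doxycycline in all 3 experiments and MAD2L1 was higher, while the differences of CENPE, PLK1 and FOXM1 were uneven and largest in experiment 3.

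None of the 6 mitotic kinases was called, and their median log2 fold change was -0.08. PLK1 (ENSG00000166851_at), the Polo-like kinase needed for centrosome maturation and cytokinesis, had log2 levels of 8.89, 8.89 and 8.81 without doxycycline and 9.06, 8.80 and 9.25 with it. It was higher in experiments 1 and 3 and lower in experiment 2, and the groups overlapped. Its log2 fold change was 0.17 (standard error 0.13, 95% interval -0.18 to 0.52, adjusted p = 0.64 in limma). AURKA (ENSG00000087586_at), the Aurora kinase of the spindle poles, was at 9.89, 9.99 and 10.01 without and 9.90, 9.80 and 9.96 with doxycycline, and the groups overlapped. Its log2 fold change was -0.08 (standard error 0.07, 95% interval -0.28 to 0.12).

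The other Aurora kinase, AURKB, which corrects wrong attachments as part of the chromosomal passenger complex, had a log2 fold change of 0.22 (95% interval -0.06 to 0.50). With the doxycycline array of experiment 2 left out and no block it passed the limits, at 0.34. NEK2, a kinase that parts the centrosomes, was lower in each experiment with a log2 fold change of -0.21 (95% interval -0.40 to -0.02), short of 1.2-fold. TTK, the kinase that starts checkpoint signalling, was at -0.17 and MELK, a kinase whose mRNA peaks in mitosis, at -0.08. TTK passed the limits, at -0.27, with no block and without the first uninduced array.

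The spindle checkpoint and APC/C genes had the highest median of the 7 roles, a log2 fold change of 0.07, with 1 of 6 members called. That member was MAD2L1 (ENSG00000164109_at), which encodes MAD2, the checkpoint protein that holds back CDC20 at unattached kinetochores. Its log2 levels were 7.98, 8.07 and 8.05 on the uninduced arrays and 8.13, 8.46 and 8.45 on the doxycycline arrays. Every doxycycline array lay above every uninduced array, with the smallest difference, 0.16, in experiment 1. The mean log2 level was 8.03 ± 0.05 (SD, n = 3) without and 8.35 ± 0.19 (SD, n = 3) with doxycycline, a 1.25-fold difference. The log2 fold change was 0.32 (standard error 0.08, 95% interval 0.09 to 0.55, adjusted p = 0.36 in limma). The call was lost in the methods' t-test, without experiment 2 (log2 fold change 0.28) and without experiment 3 (log2 fold change 0.27). With no block and a single array left out, it held only without the doxycycline array of experiment 1.

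CDC20, the APC/C activator that MAD2 restrains, was the next highest member, chosen for mention after its values were seen. Its log2 levels were 8.21, 8.23 and 8.34 without and 8.35, 8.44 and 8.74 with doxycycline, so that the groups only just did not overlap. The log2 fold change of 0.25 (95% interval 0.03 to 0.48, adjusted p = 0.38 in limma) missed the limits. The remaining members of this role lay close to 0. BUB1, a checkpoint kinase at kinetochores, was at 0.09, UBE2C, the ubiquitin-conjugating enzyme of the APC/C, at 0.05, BUB3, the partner of BUB1, at -0.02, and BUB1B, which with MAD2 inhibits CDC20, at -0.07. MAD2L1 and CDC20 thus lay above 0, and BUB1B and BUB3 slightly below it. The 95% intervals of BUB1B (-0.24 to 0.10) and BUB3 (-0.20 to 0.15) held 0, and differences between these genes were not tested.

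Of the 6 kinetochore, centromere and chromosomal passenger genes 0 were called by limma, and 0 had an unadjusted p under 0.05 there. With a variance prior depending on the level, CENPE, NDC80 and CENPF had an unadjusted p under 0.05 in limma. The median log2 fold change of the 6 genes, -0.10, was the lowest of the 7 roles. CENPE (ENSG00000138778_at), a kinesin that moves chromosomes to the middle of the spindle, was at 8.02, 8.34 and 8.30 without and 7.98, 8.05 and 7.75 with doxycycline. It was lower in each experiment, but by 0.04 in experiment 1 and 0.55 in experiment 3, and its lowest uninduced array lay below the doxycycline array of experiment 2. Its log2 fold change was -0.29 (standard error 0.12, 95% interval -0.63 to 0.04, adjusted p = 0.44 in limma), which is the third largest of the members in either direction and did not pass. It did, at -0.39, with the uninduced array of experiment 1 left out and no block.

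NDC80, which forms the microtubule-binding arm of the kinetochore, had non-overlapping groups and a log2 fold change of -0.27 (95% interval -0.55 to 0.01). With no block and the doxycycline array of experiment 2 left out it passed the limits, at -0.33. CENPF, a large kinetochore protein that accumulates in G2, was at -0.13, and BIRC5 (survivin), a passenger subunit, at -0.06. CDCA8 (borealin), another passenger subunit, was at 0.08, and HJURP, which loads the centromeric histone CENP-A, at 0.16. Of the passenger genes, AURKB and CDCA8 lay above 0 and BIRC5 below it. The 95% intervals of all 3 held 0 (-0.13 to 0.29 for CDCA8 and -0.29 to 0.18 for BIRC5).

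Of the 6 spindle assembly genes, KIF11 was called as lower. KIF11 (ENSG00000138160_at), the kinesin that pushes the spindle poles apart, had log2 levels of 8.99, 9.17 and 9.17 without and 8.83, 8.90 and 8.81 with doxycycline. Every doxycycline array lay below every uninduced array. The mean log2 level was 9.11 ± 0.10 (SD, n = 3) without and 8.85 ± 0.05 (SD, n = 3) with doxycycline. The log2 fold change of -0.26 (standard error 0.07, 95% interval -0.46 to -0.07, adjusted p = 0.36 in limma) is just past the limit on size. The call of KIF11 was lost when the methods' t-test was run on these probe sets, and without experiment 1, 2 or 3 (log2 fold changes of -0.31, -0.26 and -0.22). With no block, it was also lost without the doxycycline array of experiment 1 or 3, or the uninduced array of experiment 2 or 3. DLGAP5, which stabilises spindle microtubules near chromosomes, was at -0.17 with groups that did not overlap. TPX2, the activator of AURKA on the spindle, ASPM, which focuses the spindle poles, and NUSAP1, which bundles spindle microtubules, were all at 0.00. KIF2C, a kinesin that takes microtubules apart at centromeres, was at 0.09.

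The 6 genes of the spindle midzone and of cytokinesis varied least among the roles with 6 members, with an SD of their log2 fold changes of 0.10, and 0 were called. KIF20A, a kinesin of the midzone that brings the passenger complex there, was higher in each experiment, with a log2 fold change of 0.19 (95% interval 0.01 to 0.37, adjusted p = 0.39 in limma). In this role it was the only member with an unadjusted p under 0.05 in limma, and the methods' t-test also called none. The midzone kinesin KIF23 was at -0.07 and its centralspindlin partner RACGAP1 at 0.07. PRC1, which cross-links midzone microtubules, was at -0.05, ECT2, the activator of RhoA at the cleavage site, at -0.04, and ANLN, a scaffold of the contractile ring, at -0.02.

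Neither gene of the mitotic chromosome was called. TOP2A (ENSG00000131747_at), which untangles sister chromatids, had log2 levels of 10.83, 10.91 and 11.00 without and 10.82, 10.76 and 10.79 with doxycycline, a log2 fold change of -0.12 (standard error 0.07, 95% interval -0.33 to 0.08, adjusted p = 0.56 in limma). The groups did not overlap, though by only 0.01 between the arrays of experiment 1. MKI67 (ENSG00000148773_at), the Ki-67 protein that coats mitotic chromosomes and is the usual stain for proliferating cells, was at 10.35, 10.41 and 10.55 without and 10.62, 10.44 and 10.57 with doxycycline. The groups overlapped, and most of the log2 fold change of 0.11 (standard error 0.08, 95% interval -0.12 to 0.34, adjusted p = 0.66 in limma) came from experiment 1. TOP2A and MKI67 lay on opposite sides of 0.

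In direction, 22 of 38 members differed the same way in the 3 experiments (57.9%), 13 lower and 9 higher, against 36.5% of all probe sets and 53.8% of those at or above the level of the lowest member. All 3 doxycycline arrays lay below all 3 uninduced arrays for 8 members (21.1%, against 7.93% of all probe sets and 13.8% of those at such levels), namely CDK1, NDC80, KIF11, DLGAP5, CENPF, TOP2A, KIF23 and PRC1. They lay above for 3 members (7.89%, against 8.64% and 15.4%), namely MAD2L1, CDC20 and FOXM1. The share of members below was thus larger, and that above smaller, than among all probe sets at or above the lowest member's level. These differences were not tested.

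The differences of the 38 members agreed in part from one experiment to the next, without a common direction. For 16 of the 38 they did not have the same sign in all 3 experiments. Across the members, they correlated with r = 0.48 between experiments 1 and 2, 0.51 between 1 and 3 and 0.78 between 2 and 3. Across the probe sets at or above the lowest member's level, the corresponding values were 0.52, 0.49 and 0.62. These correlations are across genes measured on the same arrays, which are not independent replicates, and are given as a description. Experiment 3 had the widest spread of member differences, an SD of 0.26 against 0.12 and 0.15 in experiments 1 and 2. Over the probe sets at or above the lowest member's level, the SDs were 0.20, 0.20 and 0.25.

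**Figure D4:**
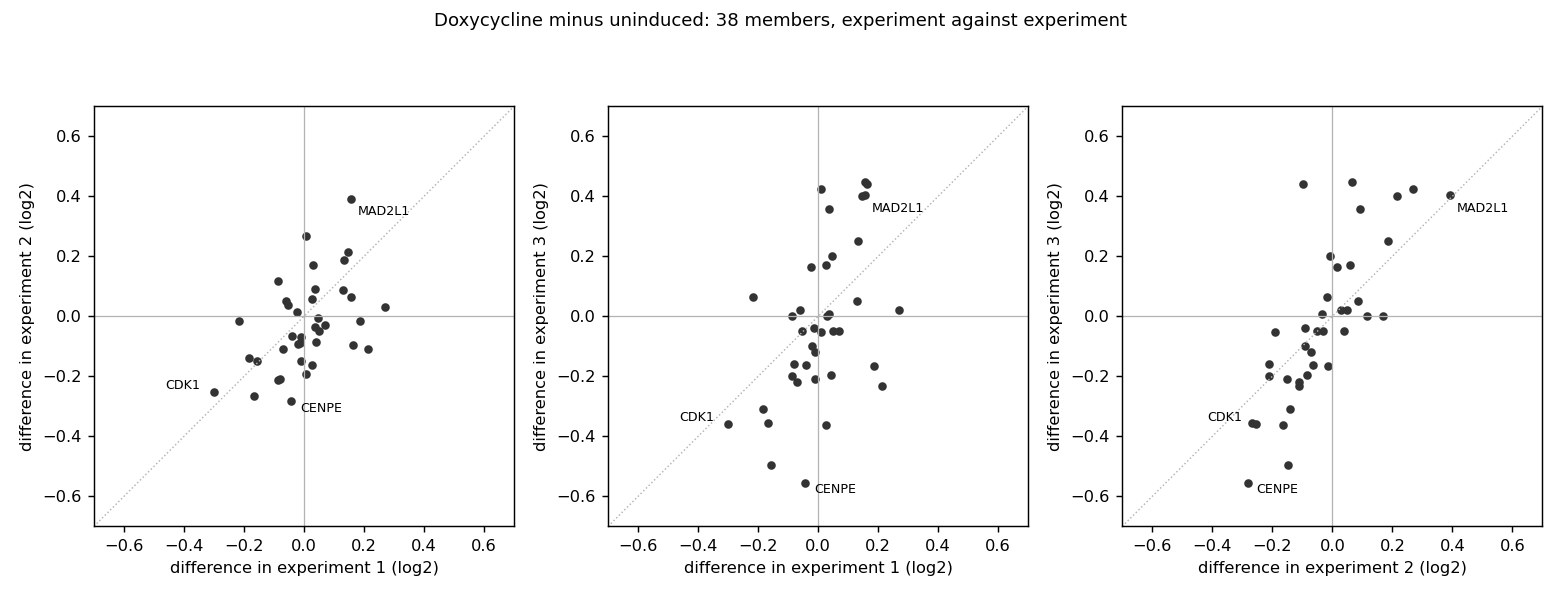
Difference in log2 level (doxycycline minus uninduced) of the 38 members in 1 experiment against another, with the dotted line marking equal values. The points run along the diagonal through 0 (r = 0.48, 0.51 and 0.78), and reach farthest in experiment 3, where CENPE was at -0.55 and MAD2L1 at 0.40.

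Gene length was compared with the differences, among several features and without being planned beforehand. Across the 38 members, the log2 fold change correlated with the log10 of the RefSeq gene length with r = -0.47 and a Spearman rho of -0.38, as a description over genes of the same arrays. The shortest genes include CDC20 (4223 bases), AURKB (5845 bases), KIF20A (8612 bases) and MAD2L1 (11226 bases), which were among the members with the highest log2 fold changes. CENPE (92533 bases), KIF11 (62266 bases) and NDC80 (45079 bases) were among the lowest. There were exceptions at both ends. CDK1, at 16522 bases, was short and had the lowest value, and UBE2C (4309 bases) and CCNA2 (7440 bases) were short with log2 fold changes of 0.05 and -0.09. CCNB1, at 11096 bases, was at -0.15. The longest member, MELK (104788 bases), was at -0.08, and ECT2 (78540 bases), ANLN (63930 bases), ASPM (62543 bases) and TPX2 (62511 bases) lay between -0.04 and 0.00. By experiment, r was -0.05, -0.37 and -0.60. Its part in the differences was not tested, and lengths of the other probe sets were not analysed here.

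**Figure D5:**
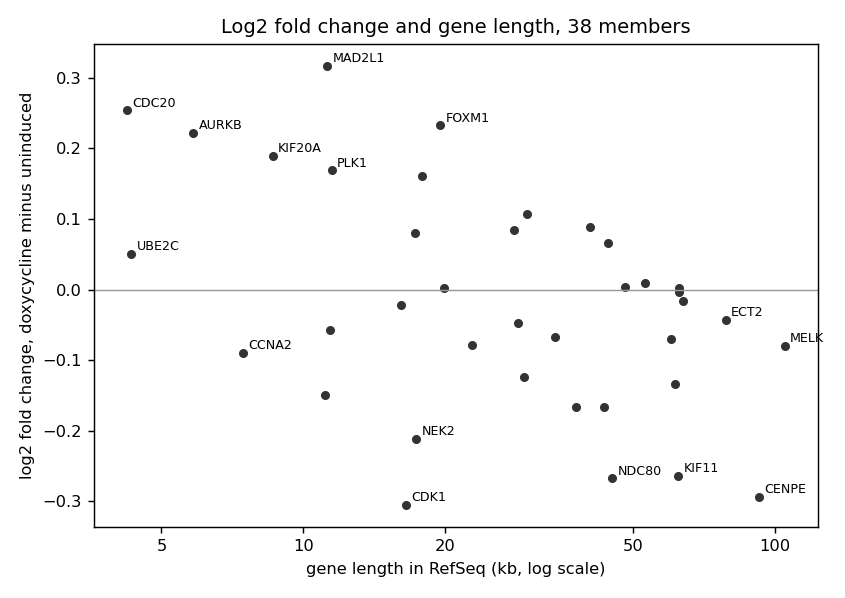
Log2 fold change (doxycycline minus uninduced) of the 38 members against their gene length in RefSeq (kb, log axis). Points tend to fall from upper left to lower right (r = -0.47), with CDK1 as a short gene of low value and several long genes near 0.

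Other features lined up less with the log2 fold change over the 3 experiments, though not in experiment 1. The log2 fold change had r = 0.08 with the mean log2 level over the 38 members and r = 0.20 with the GC content of the promoter window over the 30 members that had one. By experiment, r was 0.35, -0.03 and -0.01 with the mean level, and 0.23, 0.14 and 0.17 with the GC content. In experiment 1 both were thus farther from 0 than the r of -0.05 with gene length. The median log2 fold change was -0.02 for the 25 members with a CHR match and -0.08 for the others with a window, and it was 0.00 for the 23 with a CCAAT match and -0.07 for the others. CDK1, KIF11 and MAD2L1 all carry both motifs in the windows printed above, and MAD2L1 differed in direction from the other two.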

How the data were processed

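Log2 expression levels of 26445 Ensembl-named probe sets, as deposited by the authors for 6 Human Exon 1.0 ST arrays, were used as they stand. RMA is named in the submitters' processing notes. The sorted log2 levels of the arrays deposited by the authors differed by at most 0.024 at any rank, so the arrays already shared 1 distribution. Annotation version and genome build are not given in the sources used here. Arrays were assigned to 3 doxycycline and 3 uninduced samples and to experiments 1, 2 and 3 from the sample titles. All columns of the table were used. Precision is limited by the 3 arrays per group.

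A linear model with terms for treatment and experiment was fitted to each probe set in limma (version 3.58.1, R version 4.3.3), with moderated variances and 2-sided tests. The experiment was a block because the methods of the study pair the arrays. Benjamini-Hochberg adjustment ran over the whole table. The fit was tested on simulated data. Calls used the limits of the study's gene selection (unadjusted p under 0.025, at least 1.2-fold) and an adjusted p under 0.05. Correlations over members are Pearson's r, or Spearman's rho where named.

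The members, their roles and the other lists were chosen with earlier results of these data known. All members are named. Full values are given for those called, for the 3 with the largest absolute log2 fold change and for CDK1, CCNB1, MKI67, TOP2A, AURKA, PLK1 and FOXM1. A further 161 symbols, listed for other mitotic, replication, G1 and cell type marker genes and the induced gene, could not be paired with an identifier (0 matched) and were not analysed here. The promoter motifs were chosen after the data were seen. Alternatives left out the block, each experiment or each array, used the methods' t-test, other variance priors, a further quantile normalization, removal of the level trend (lowess, span 0.3), other fold change minimums, or no probe sets in the lowest 25% of levels.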

Additional observations from a re-analysis of the deposited data

How the results depend on the processing

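The same 3 members, CDK1, KIF11 and MAD2L1, were called with no replicate block (1050 probe sets in all, against 1543), with either other variance prior, after a further quantile normalization or removal of the level trend, without the lowest 25% of levels and with no fold change minimum. With the prior depending on the level, 11 members had an unadjusted p under 0.05 in limma, against 6 in the main fit. The lowest adjusted p of a member was then 0.17. The methods' t-test called 1 member, CDK1 (0 higher and 1 lower, of 577 probe sets in all), and a minimum of 1.5-fold left 0 in either direction. With an experiment or, without the block, an array left out, the count of members ran from 0 to 4, with 0 to 1 higher and 0 to 4 lower, and the smaller number of arrays is part of this. It was 1 without experiment 1 and 0 without experiment 2 or 3. Without the block it was 1 without the doxycycline array of experiment 1, and 0 without that of experiment 3 or without the uninduced array of experiment 2 or 3. With an adjusted p under 0.05 as the limit, 0 members passed in limma and in all 16 alternatives run for it, and the members' median log2 fold change lay between -0.045 and 0.0022, within its spread between experiments.

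The sign of 28 members held in all alternatives that were run. The other 10 lay near 0. ASPM turned to -0.0011 with the level trend removed. With an experiment or array left out, the log2 fold change ran from -0.090 to 0.085 for ASPM, -0.030 to 0.032 for CCNB2, -0.040 to 0.032 for TPX2, -0.13 to 0.024 for BIRC5, -0.028 to 0.035 for NUSAP1, -0.0055 to 0.089 for UBE2C, -0.065 to 0.015 for ANLN, -0.0030 to 0.13 for CDCA8, -0.17 to 0.052 for ECT2 and -0.060 to 0.059 for CDC25C.

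Deviations of same-numbered arrays from their group means correlated with r = 0.039, 0.049 and 0.13 over all probe sets. Between differently numbered arrays r ran from -0.092 to 0.044. Each doxycycline array had its highest r with the uninduced array of its number. The reverse did not hold for the uninduced array of experiment 1. Its r was 0.044 with the doxycycline array of experiment 2 and 0.039 with that of experiment 1. The values are small and leave the pairing unsettled. The replicate block was kept because the study's own test pairs the arrays. It changed no call of a member.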
